A study of Mus musculus with 6 samples.

Results

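This report describes 39 genes of axon guidance, ligands and receptors of the Slit-Robo, netrin-Dcc-Draxin, semaphorin-plexin and Eph-ephrin families, in mouse retina on postnatal day 2 (P2). The genes were chosen by symbol, and all 39 had 1 row each among the 20175 genes of the deposited table. RNA selected by poly-A was sequenced in 3 control samples of retina and in 3 that came from Zeb2 loxp/loxp αCre animals, called mutant here; αCre drives Cre recombinase in progenitors of the peripheral retina, so a whole-retina sample also holds cells that kept Zeb2. The genotype of the controls, the strain, the sex and the number of animals behind a sample are not given in the sources used here. The labels do not state that replicates are separate animals, so each p-value covers the spread among these samples alone, part of which may be technical.

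Axon guidance molecules steer growing nerve fibres. Slits are secreted repellents read by Robo receptors, and netrins attract through Dcc and Neo1 but repel where Unc5 receptors are present. Draxin is a secreted protein that binds netrin and Dcc. Semaphorins act through plexins, with neuropilins as coreceptors for the secreted class, and Eph receptors bind ephrins on neighbouring cells. In the eye these systems guide ganglion cell axons to the optic disc, sort them at the chiasm and map them onto their targets, and semaphorins and plexins also shape the layers in which amacrine and ganglion cell processes meet. The protein Zeb2 is a transcription factor with zinc fingers; it binds E-box sequences and interacts with Smads.

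The values are normalised counts, reads per gene divided by a size factor per library. The libraries held 26041200 to 32614805 recovered reads. Zeb2 had 5989.7, 6448.7 and 5916.7 normalised counts in control libraries and 5581.4, 4273.6 and 5049.7 in mutant ones, so every mutant library lay below every control. Its means were 6118 ± 288 and 4968 ± 658 (SD, n = 3 each), a difference that missed the threshold across all genes (limma adjusted p = 0.129; exact 2-sided permutation p = 0.1, the lowest possible with 3 against 3). The adjusted p of Zeb2 was 0.0375 without mutant library 1 and 0.0155 with DESeq2. The 8 neural retina markers summed to 130920 to 133596 in controls and 128754 to 135087 in mutants. Of these markers 0 were called, beside 1.15% of all genes. Their sum covers shifts in both directions. The 3 mutant values lay outside the control values in 37.5% of the list, beside 23.2% of all genes. Pax6 and Lhx2 were lower, at 86.4% and 87.2% of their control levels, and Six3 was higher, at 121%. Mutant libraries 1 and 2 stood apart in mesenchyme transcripts: Col1a1 had 2138.7 and 724.7 there, against 62.0 in mutant library 3 and 37.3 to 260.2 in the controls. The astrocyte gene Gfap did likewise, at 5130.2 and 3772.4 against 234.6, and 143.8 to 466.3 in controls. Control library 2 held the most lens crystallin reads, with 6152.8 for Cryaa against 369.6 to 1981.5 in the other libraries.

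Of the 39 genes 1 passed the test across all genes: Draxin, which fell in the mutant retina to 71.4% of its control level. A share of 2.56% of the members was therefore called, beside 1.15% of all 16064 genes tested; calls lower in the mutant made up 0.218% of all genes and higher calls 0.928%. The test was limma on log2(normalised count + 1), with p adjusted by Benjamini-Hochberg over all tested genes. All 39 members passed the filter of a mean of at least 10. The 3 mutant values lay outside the control values in 15 members (38.5%), 11 of them lower and 4 higher, beside 23.2% of all genes tested, 11.7% lower and 11.5% higher. Of the 39 fold changes 27 (69.2%) were below 0, beside 52.0% of all genes, and the median was -0.086 against -0.0067. By role, 8 of 14 ligands and secreted inhibitors (57.1%) and 7 of 25 receptors and coreceptors (28.0%) had groups that did not overlap; the difference between these shares was not tested.

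**Figure D1:**
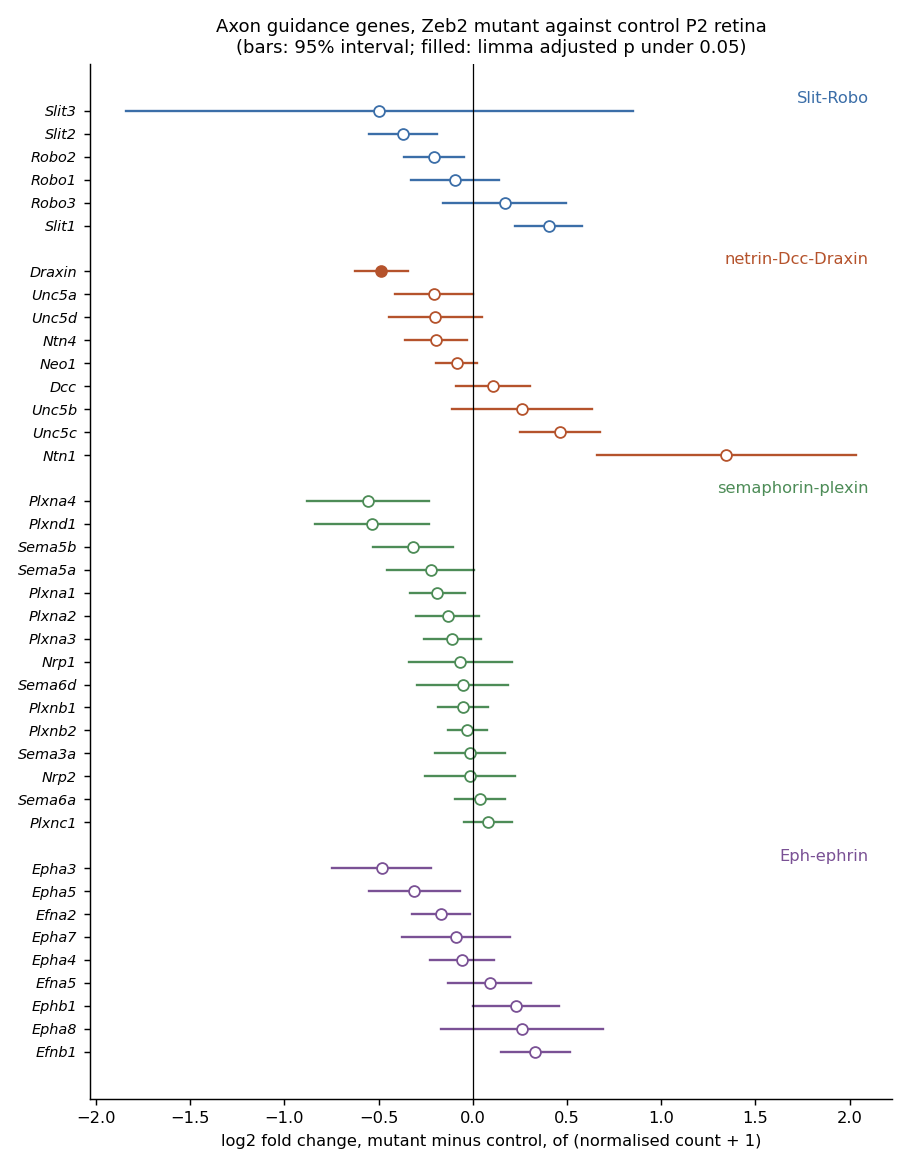
The log2 fold change of each of the 39 members (horizontal axis, mutant minus control, of normalised count + 1) with its 95% interval, grouped by family. Draxin, the filled point, is called at -0.48, Ntn1 stands farthest to the right at 1.35, and Slit3 has the widest interval.

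The number of calls depended on the method and on single libraries. DESeq2 on the recovered reads called 11 members (28.2%), 7 lower and 4 higher, beside 5.44% of all genes. The 7 were Draxin, Slit2, Sema5b, Plxna4, Plxnd1, Epha3 and Epha5, and the 4 were Slit1, Ntn1, Unc5c and Efnb1. limma without mutant library 1 called 8 members (20.5%), 6 lower and 2 higher, beside 3.74% of all genes. Without control library 1 or mutant library 2 limma called 0 members. On the recovered reads of all 6 libraries, the quasi-likelihood test of edgeR called 1, Draxin. The shares of all genes called by edgeR, or without control library 1 or mutant library 2, are not given here. Those counts of members therefore stand without a background. With limma on all 6 libraries 15 of 39 members (38.5%) had an unadjusted limma p under 0.05, beside 17.3% of all genes.

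Levels can be compared between genes per kilobase of exon (kb, all annotated exons of a gene merged, which understates genes with long rarely used exons). On this scale the most abundant ligands in the control retina were Slit1 (165 normalised counts per kb), Ntn4 (205), Sema5b (452) and Efna2 (1016) in their respective families. In normalised counts without length, Slit2 lay above Slit1 (control means 2333 and 978) and Sema5a above Sema5b (4602 and 3197). These rankings rest on the merged exon lengths, 25433 and 5921 bases for the Slits and 18686 and 7080 for the semaphorins. Per kb the most abundant receptors were Robo2 (448), Neo1 (727), Plxnb2 (1388) and Epha8 (1816). Slit3 and Ntn1 were the scarcest members, at 4.47 and 3.06 per kb. The receptors Unc5d, Unc5b, Unc5c, Epha7 and Plxna4 lay between 26.8 and 47.0 per kb in controls.

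**Figure D2:**
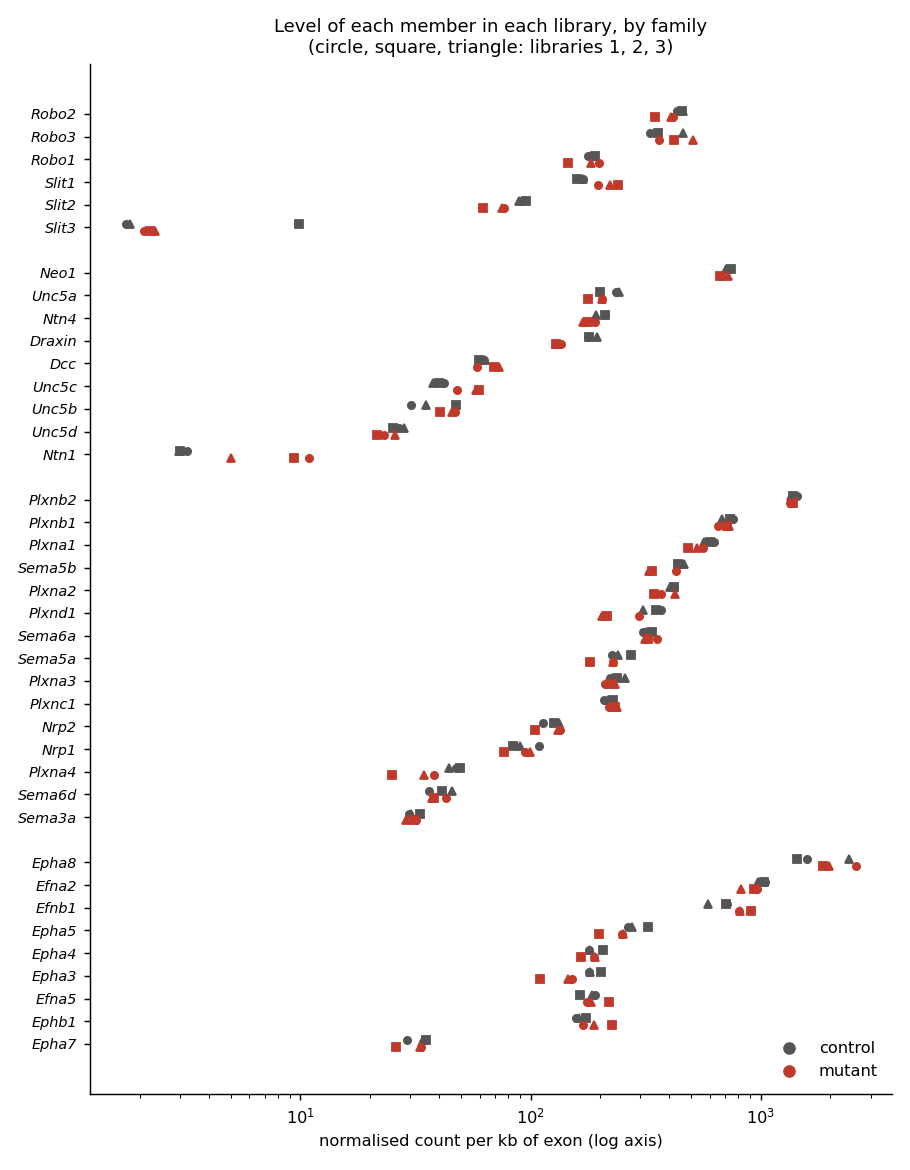
The level of each member in each library (horizontal log axis, normalised count per kb of exon), controls in grey and mutants in red, grouped by family and ordered by the control mean. Epha8 and Plxnb2 are the most abundant members, and Slit3 in control library 2 stands apart from the other 5 libraries.

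Draxin had the smallest p of the members. Its promoter and those of Unc5c and Slit2 are shown because they belong to the 4 members with the smallest p; Slit1, the other one, had no entry in the RefSeq table used (build GRCm38.p6). Each line gives the 250 bases before the annotated start, 5′ to 3′ on the gene's strand. The Unc5c stretch lies inside the annotated gene, which begins at base 141465216, and the Slit2 stretch ends past that gene's first base, 47983138. Of the 8 annotated Unc5c transcripts 2 hold the bases after this start. For Slit2 it was 8 of 23 and for Draxin 1 of 1.
Draxin (chr4:148130699-148130948, minus strand): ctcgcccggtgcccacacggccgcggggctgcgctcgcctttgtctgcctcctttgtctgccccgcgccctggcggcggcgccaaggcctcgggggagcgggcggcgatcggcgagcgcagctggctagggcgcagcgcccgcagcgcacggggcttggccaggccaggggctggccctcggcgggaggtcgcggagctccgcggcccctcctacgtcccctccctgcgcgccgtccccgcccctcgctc
Unc5c (chr3:141465314-141465563, plus strand): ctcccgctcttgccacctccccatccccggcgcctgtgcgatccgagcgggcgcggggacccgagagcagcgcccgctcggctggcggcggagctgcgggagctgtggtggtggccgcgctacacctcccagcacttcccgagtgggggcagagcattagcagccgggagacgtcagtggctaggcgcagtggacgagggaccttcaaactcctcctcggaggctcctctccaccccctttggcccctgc
Slit2 (chr5:47982905-47983154, plus strand): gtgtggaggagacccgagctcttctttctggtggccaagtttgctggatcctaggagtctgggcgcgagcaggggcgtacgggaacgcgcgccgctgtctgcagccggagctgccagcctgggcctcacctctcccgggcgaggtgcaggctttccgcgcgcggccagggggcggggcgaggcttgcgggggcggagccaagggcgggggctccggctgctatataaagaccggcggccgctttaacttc
An E-box of 6 bases that Zeb factors bind, CAGGTG on either strand (CACCTG on the other), was searched in windows of 300 bases. These run 50 bases past the start. Shorter or other forms of the site were not searched, so a window without a match may still hold one. None of these 3 windows held the 6 bases searched, and 4 of the 37 windows of the 32 matched members did (10.8%), beside 20.2% of 32851 windows of all genes. 2 of the 4 were windows of Robo1 and Robo3, shown next with the motif in capitals to let the match be read. They were chosen for it. The Robo1 window lies inside the annotated gene, which begins at base 72308306. Of its 9 annotated transcripts 1 holds the bases after this start, and for Robo3 it was 1 of 6.
Robo1 (chr16:72662899-72663148, plus strand): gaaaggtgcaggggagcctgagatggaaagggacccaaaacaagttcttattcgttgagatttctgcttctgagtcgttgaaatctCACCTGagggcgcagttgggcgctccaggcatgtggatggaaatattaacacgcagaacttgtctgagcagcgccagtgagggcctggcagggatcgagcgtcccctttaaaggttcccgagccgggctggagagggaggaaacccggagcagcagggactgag
Robo3 (chr9:37433176-37433425, minus strand): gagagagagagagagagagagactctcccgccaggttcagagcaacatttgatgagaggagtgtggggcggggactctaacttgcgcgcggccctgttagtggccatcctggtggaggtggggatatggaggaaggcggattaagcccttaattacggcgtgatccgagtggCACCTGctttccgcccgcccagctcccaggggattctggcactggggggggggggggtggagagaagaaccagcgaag
The others were a window of Plxnb2 and one of Sema6d. A match is a description of letters, not of binding.

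Draxin (ENSMUSG00000029005, GRCm38 chromosome 4, 148098437 to 148130698, minus strand) had 924.3, 931.6 and 1007.8 normalised counts in control libraries and 702.7, 669.5 and 672.3 in mutant ones. The mutant libraries lay close together and all below the lowest control. The mean went from 955 ± 46.2 to 682 ± 18.4 (SD, n = 3 each), a log2 fold change of -0.48 ± 0.062 (SE; limma adjusted p = 0.0156). It was called in 16 of 19 alternative settings, and its fold change ranged from -0.51 to -0.45 with any 1 library left out. The limma adjusted p was 0.0737 without control library 1, 0.0506 without mutant library 2 and 0.0616 from mutant library 3 alone against the controls. In a whole-tissue sample, fewer cells of a type and less RNA per cell cannot be told apart. Beside the Draxin result, 12 of 13 amacrine cell markers had negative fold changes, as did 52.0% of all genes. Of these markers 1 was called, lower (7.69% of the list, beside 1.15% of all genes). Their summed level was 42802 to 44877 in controls and 28569 to 37711 in mutants. Of 18 ganglion cell markers 9 were negative (0 called, 60129 to 62955 and 56126 to 63527). Of the 7 horizontal cell markers 5 were negative and 2 were called, both lower (28.6% of the list, beside 1.15% of all genes; 7144 to 7554 and 6072 to 7334). These were the transcription factor genes Lhx1, at 46.4% of its control level (limma adjusted p = 0.0237), and Onecut3, at 56.2% (limma adjusted p = 0.0390). They were called in 15 and 11 of the 19 alternative settings. All 11 rod and cone markers were positive (2 called, both higher, 18.2% of the list, 27424 to 33989 and 33833 to 42033). Of 12 Mueller glia and progenitor markers 4 were negative (1 called, lower, 8.33% of the list, 147660 to 162962 and 134140 to 164645). None of the genes on these lists was at 0. Their part in the results was not tested.

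**Figure D3:**
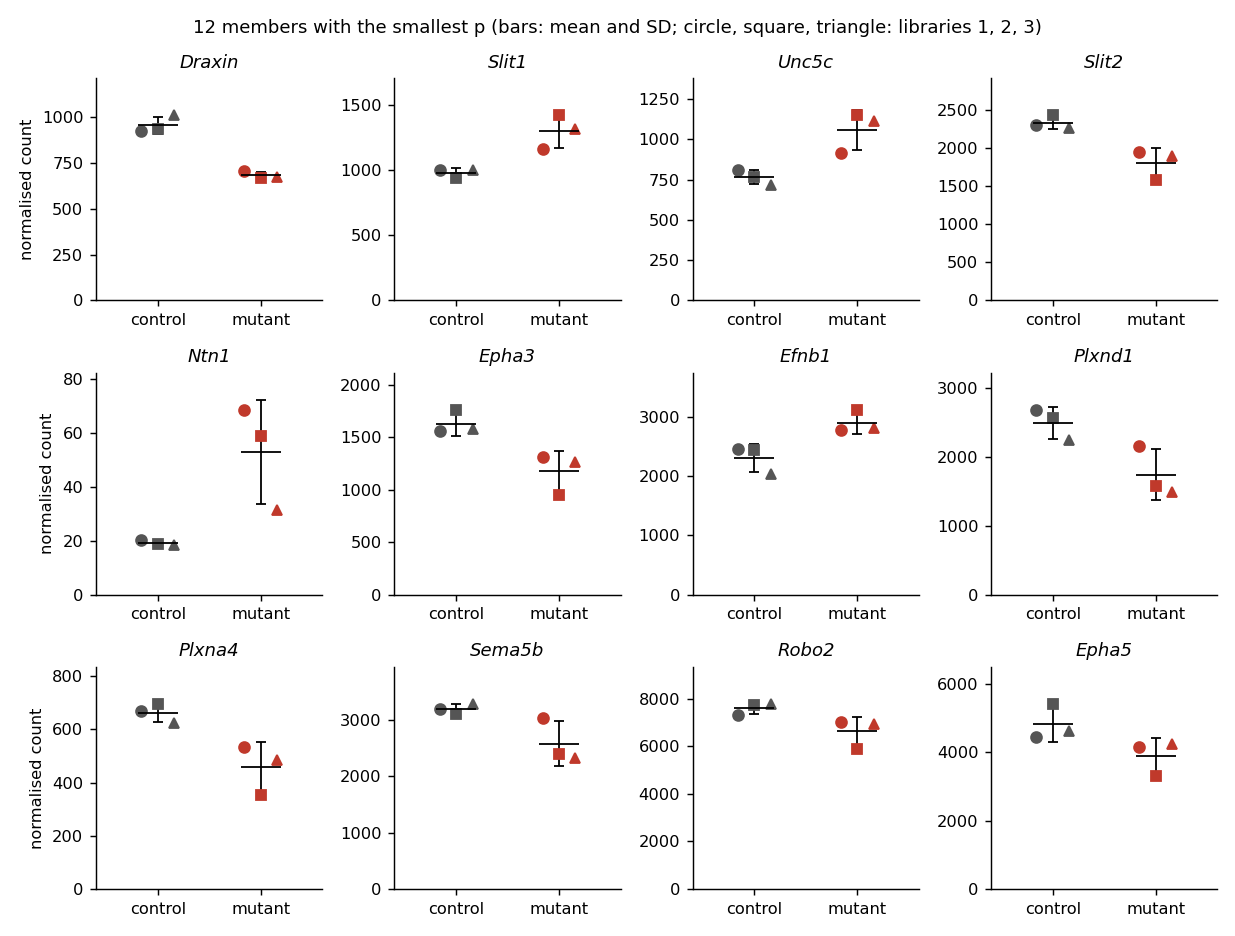
Normalised count (vertical axis, from 0) in each library for the 12 members with the smallest p, with the mean and SD of each group of 3. In every panel the 3 mutant libraries lie on one side of the 3 controls, a separation largely set by choosing the panels by p. Over all 39 members it was 38.5%, beside 23.2% of all genes tested. Mutant library 2 (square) is lowest in Draxin, Slit2, Epha3, Plxna4, Robo2 and Epha5.

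The netrins themselves were uneven. Ntn1, a netrin made at the floor plate and the optic disc, was scarce and lay higher in every mutant library, with 20.2, 18.9 and 18.6 in controls and 68.7, 59.0 and 31.5 in mutants. These values rest on 59 control and 157 mutant reads, and the change of 1.35 ± 0.30 (SE) on the log2 scale, the largest of the members, was not called (limma adjusted p = 0.0755). Mutant libraries 1 and 2, the highest for Ntn1, were those with high Col1a1 and Gfap. All 7 astrocyte markers had positive fold changes (0 called, summed level 9398 to 10099 in controls and 11833 to 16352 in mutants). So did 8 of 9 mesenchyme markers (1 called, beside 1.15% of all genes, 2777 to 2995 and 4716 to 10366). The astrocyte precursor gene Pax2 had 363.5, 372.5 and 351.4 in mutant libraries and 227.9 to 286.9 in control libraries. With log2 Col1a1 as a covariate the Ntn1 fold change was 0.99 (limma adjusted p = 0.141), and from mutant library 3 alone it was 0.68 (limma adjusted p = 0.369). Without mutant library 3 Ntn1 was called (limma adjusted p = 0.0397). The part of astrocytes and mesenchyme in the Ntn1 difference was not tested. Ntn4, a netrin of basement membranes, was the abundant one, with 784.8, 787.9 and 722.7 in controls and 715.4, 663.7 and 629.7 in mutants. These mutant values lay just under every control (log2 fold change -0.19 ± 0.072, limma adjusted p = 0.218).

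Unc5c, a receptor for the repulsive netrin response, had 807.2, 767.9 and 717.6 in controls and 915.1, 1147.5 and 1110.1 in mutants. Every mutant library lay above every control, a 1.38-fold difference that missed the threshold (log2 0.46 ± 0.093, limma adjusted p = 0.0583) and passed it without mutant library 1 (0.00985 by limma). Unc5a, its more abundant relative per kb, had means of 941 ± 96.1 and 814 ± 64.3 with overlapping groups (limma adjusted p = 0.296). Unc5b and Unc5d had log2 fold changes of 0.26 and -0.20, again with overlap. Dcc, the attractive receptor, stood at 826.3, 788.9 and 831.0 against 768.2, 916.2 and 960.8, and its interval of -0.091 to 0.30 includes 0. Neo1, a Dcc relative that also binds repulsive guidance molecules, was the most abundant netrin receptor per kb; its normalised counts were 6372, 6452.9 and 6183.3 in controls and 5857.2, 5770.3 and 6294.9 in mutants (interval -0.20 to 0.024).

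Within the Slit-Robo family the 2 abundant Slits differed in opposite directions. Slit1 had 999.9, 937.9 and 996.8 normalised counts in controls and 1160.2, 1417.4 and 1313.2 in mutants, all above the controls (1.33-fold; log2 0.40 ± 0.077, SE; limma adjusted p = 0.0529). Slit2 had 2304.3, 2428.6 and 2265.3 in controls and 1944.3, 1580.0 and 1901.3 in mutants, all below (0.775-fold; log2 -0.37 ± 0.079; limma adjusted p = 0.0662). Neither passed the threshold with all libraries, and both did without mutant library 1 (0.0120 and 0.0347 by limma). Slit1 also passed with array weights, with no filter and with libraries scaled to the same total (limma adjusted p = 0.0470, 0.0498 and 0.0493). Slit3 was scarce, with 80 reads in all controls and 40 in all mutants. Its normalised counts were 10.6, 59.8 and 11 in controls and 12.7, 13.5 and 14.2 in mutants. A single library, control 2, set its negative fold change of -0.50; without it the value was 0.29. That library was also the highest in lens crystallins, and the part of these in Slit3 was not tested.

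The Robo receptors showed smaller differences. Robo2, the most abundant of them and a Slit receptor of ganglion cell axons, had 7322.9, 7742.2 and 7774.1 in controls and 7029.0, 5896.1 and 6918.5 in mutants. Its groups did not overlap, but the difference of -0.21 ± 0.070 (SE) was not called (limma adjusted p = 0.176). Robo1 had overlapping groups at 3070 ± 132 and 2899 ± 447 (limma adjusted p = 0.691). Robo3, the divergent Robo of commissural axons, spread widely within both groups, from 2258.5 to 3135.2 in controls and from 2467.3 to 3463.3 in mutants. Its interval of -0.16 to 0.49 leaves either direction possible.

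Of the 15 semaphorins, plexins and neuropilins 0 were called, beside 1.15% of all genes. The groups overlapped in 11 and did not in 4 (26.7%), a share near the 23.2% of all genes. Fold changes of the 15 were below 0 in 13 (86.7%, beside 52.0% of all genes), with a median of -0.067. Against the control mean the median was -0.073, -0.25 and -0.037 in mutant libraries 1, 2 and 3, so library 2 lay lowest. Plxnd1, a plexin of vessels and neurons that binds Sema3e, had 2686.6, 2566.0 and 2239.1 in controls and 2165.1, 1571.3 and 1493.0 in mutants. Mutant library 1 came near the lowest control and the other 2 lay well under it (log2 -0.53 ± 0.13, SE; limma adjusted p = 0.0924). limma called it when mutant library 1 was left out (adjusted p = 0.00690). From mutant library 3 alone against the controls, with no mutant replicate, its log2 fold change was -0.74. Because Plxnd1 also marks endothelium, the endothelial markers are given beside it. Of the 10, 9 were negative (52.0% of all genes) and 0 were called (1.15% of all genes). Against 23.2% of all genes without overlap, all 10 overlapped between groups. Kdr alone made up most of their sum of 18976 to 21548 in controls and 18233 to 20399 in mutants. The other 9 summed to 1137, 1693 and 1443 in controls and 1534, 895 and 1192 in mutants, so mutant library 2 lay below every control and the other 2 among them. The median of all 10 against the control mean was 0.27, -0.63 and -0.016 in mutant libraries 1, 2 and 3. Their part in the Plxnd1 difference was not tested.

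The A-class plexins transmit signals of secreted and transmembrane semaphorins. Plxna4 was the scarcest of them per kb, with 668.7, 695.5 and 623.7 in controls and 534.7, 351.2 and 485.5 in mutants, all below the controls (0.690-fold; log2 -0.56 ± 0.14, SE; limma adjusted p = 0.0984). Without mutant library 1 it was called (limma adjusted p = 0.0385). Plxna1 had 5691.6, 5435.3 and 5138.2 in controls and 5099.5, 4392.6 and 4798.8 in mutants, which did not overlap by a narrow margin (limma adjusted p = 0.179). 10.7% of the merged exon bases of Plxna1 are shared with the antisense gene Gm26811, and without a stated strand setting their reads cannot be told apart. Plxna2 and Plxna3 had log2 fold changes of -0.13 and -0.11 with overlapping groups. Plxnb1 and Plxnb2, receptors for class 4 semaphorins, lay at -0.052 and -0.028. Plxnb2 had 11095.7, 10630.3 and 10425.3 normalised counts in controls and 10315.3, 10617.6 and 10583.9 in mutants, which overlapped, and a narrow interval of -0.13 to 0.074. Plxnc1, the receptor of Sema7a, stood at 0.079.

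Among the semaphorins, Sema5b had 3196.7, 3106.3 and 3289.2 in controls and 3039.0, 2390.8 and 2324.8 in mutants. Sema5b and its relative Sema5a keep retinal neurites in the inner layers. Mutant library 1 lay just below the controls and the other 2 clearly below them (log2 -0.32 ± 0.094, SE; limma adjusted p = 0.133). Leaving out mutant library 1 made Sema5b a call (limma adjusted p = 0.00658). From mutant library 3 alone against the controls, with no mutant replicate, its log2 fold change was -0.46. Sema5a stood at 4602 ± 454 and 3954 ± 506, with overlap (limma adjusted p = 0.305). Sema6a and Sema6d, transmembrane ligands of A-class plexins, had log2 fold changes of 0.039 and -0.054, and the secreted repellent Sema3a -0.016. Nrp1 and Nrp2, which bind class 3 semaphorins together with plexins, lay at -0.067 and -0.015. Their intervals were -0.34 to 0.21 and -0.25 to 0.22, and the sign of both varied with the libraries left out.

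In the Eph-ephrin family the members lay on both sides of 0, 5 below and 4 above. Epha3 had 1554.7, 1762.4 and 1574.8 in controls and 1313.5, 954.0 and 1259.4 in mutants, all below the controls (0.721-fold; log2 -0.48 ± 0.12, SE; limma adjusted p = 0.0855; 0.0406 without mutant library 1). Epha5, an Eph receptor that forms a nasal-temporal gradient across ganglion cells, had 4447.8, 5423.7 and 4615.2 in controls and 4160.1, 3306.0 and 4235.2 in mutants. Its groups were separate but close (log2 -0.31 ± 0.11, limma adjusted p = 0.177). Epha4 and Epha7 had overlapping groups at -0.057 and -0.089. Epha8, the most abundant member per kb, varied widely, with 7519.9, 6780.2 and 11372.2 in controls and 12209.9, 8763.9 and 9326.5 in mutants. Its interval of -0.17 to 0.69 includes 0. Ephb1, the receptor that sends ventrotemporal axons to the same side of the brain, had 1097.9, 1221.1 and 1139.0 in controls and 1177.1, 1576.1 and 1320.3 in mutants, and mutant library 1 lay within the controls (limma adjusted p = 0.291).

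Efnb1, a transmembrane ephrin with a dorsal-high pattern in the retina, had 2451.3, 2433.9 and 2036.0 in controls and 2774.8, 3118.3 and 2803.1 in mutants, all above the controls (1.26-fold; log2 0.33 ± 0.081, SE; limma adjusted p = 0.0869). Efna2, a membrane-anchored ephrin of the A class, had 2223.4, 2206.2 and 2063.9 in controls and 2054.2, 1988.3 and 1747.9 in mutants, just below (log2 -0.17 ± 0.068, limma adjusted p = 0.249). Efna5 overlapped between groups at 725 ± 55.6 and 774 ± 93.6 (limma adjusted p = 0.692).

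Ratios of related members within a library show these contrasts without the scaling between libraries. They were chosen after the members' values were seen and are given with no test. Per kb, Slit1 stood at 1.86, 1.66 and 1.89 times Slit2 in controls and at 2.56, 3.85 and 2.97 times in mutants. In normalised counts without length Slit2 was above Slit1 in every library, so the level of this ratio rests on the merged exon lengths. The ratio of Unc5c to Unc5a was 0.179, 0.201 and 0.155 in controls and 0.233, 0.338 and 0.285 in mutants. Draxin stood at 2.83, 2.99 and 3.07 times Dcc in controls and at 2.32, 1.85 and 1.77 times in mutants. Efnb1 over Efna2 had means of 0.657 ± 0.0415 and 0.931 ± 0.0845, and Ephb1 over Epha3 of 0.878 ± 0.0189 and 1.49 ± 0.496 (SD, n = 3 each). In none of the 5 ratios did the groups overlap, a separation largely set by choosing the pairs after their values were seen. Mutant library 1 was the mutant nearest to the controls in each.

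**Figure D4:**
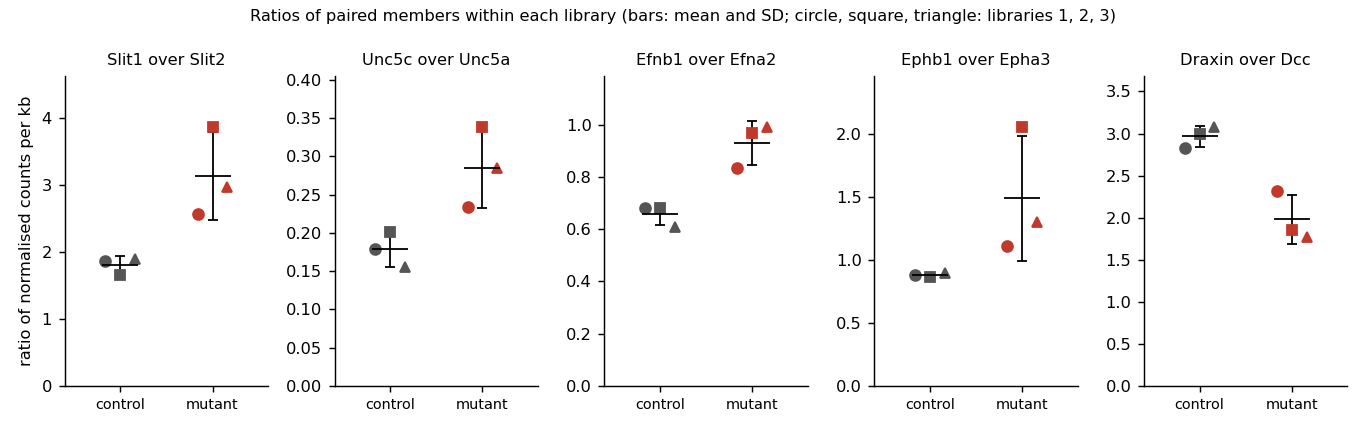
Ratio of normalised counts per kb (vertical axis, from 0) of 5 pairs of members in each library, with the mean and SD of each group. The ratio of Slit1 to Slit2 is 1.66 to 1.89 in controls and 2.56 to 3.85 in mutants, and that of Draxin to Dcc lies lower in the mutants.

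Other genes of the same pathways were taken from 6 lists of 91 symbols, of which 88 were tested. Sema4d, a ligand of B-class plexins, was the 1 gene called. That is 1.12% of the 89 genes with a row, near the 1.15% of all genes. Sema4d fell from 3286.1, 3500.8 and 3312.1 to 2753.7, 2296.9 and 2314.6 normalised counts, all below the controls (log2 -0.46 ± 0.073, SE, limma adjusted p = 0.0272). The call was lost when any 1 control was left out and without mutant library 2 or 3 (limma adjusted p = 0.0638 to 0.113). By list, 10 of 12 other Slit-Robo genes, 7 of 11 netrin genes, 19 of 27 semaphorin genes and effectors and 17 of 20 Eph-ephrin genes and effectors had fold changes below 0. Their medians were -0.083, -0.039, -0.031 and -0.11, beside -0.0067 for all genes. Axon adhesion molecules split evenly, 5 below and 5 above, and of all genes 52.0% were below 0. Of the 8 transcription factor genes of retinal axon guidance 6 were below 0, with a median of -0.14.

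The 2 genes with the smallest p in each list without a call had these values. The syndecans Sdc1 and Sdc3, whose heparan sulfate chains bind Slits, lay at -0.35 and -0.24 (limma adjusted p = 0.153 and 0.161). Ablim1, an actin-binding protein gene, and Dscaml1, a relative of the netrin receptor Dscam, lay at 0.20 and 0.28 (limma adjusted p = 0.0952 and 0.133). Epha2 lay at -0.45 and the Eph effector Vav3 at -0.28 (limma adjusted p = 0.0555 and 0.140). The adhesion genes Nfasc and Chl1 lay at 0.28 and 0.29 (limma adjusted p = 0.0733 and 0.0872). Foxd1, a transcription factor gene of temporal retina, had 632.5, 1008.2 and 439.2 in controls and 377.2, 208.0 and 263.0 in mutants, all below a wide control range (log2 -1.25 ± 0.30, SE; limma adjusted p = 0.0855). Zic1 had 1649.4, 2273.3 and 1739.0 in controls and 2394.4, 3275.1 and 2418.2 in mutants (limma adjusted p = 0.122). These 10 genes were picked by their p, so the separation of their groups was largely set by that choice; over all 89 genes of the lists with a row it was 44.9%, beside 23.2% of all genes tested.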

How the data were processed

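The authors deposited 1 table of 20175 genes with a normalised count signal for each library, given to 1 decimal (0 other value columns). Tools in the submitters' processing notes, with no role or order, are STAR 2.4.2a, cutadapt, DESeq2 and HTSeq, and the build is GRCm38. The sources used here do not give how strand was counted. Within 0.06, 100% of the values were whole multiples of the worth of 1 read, so whole reads were recovered. Differences were tested with limma 3.58.1 under R 4.3.3, with its variance trend, on log2(value + 1), over 16064 genes with a mean of at least 10, called at a 2-sided Benjamini-Hochberg adjusted p under 0.05. Fold changes on this scale understate low genes. edgeR 4.0.16 and DESeq2 1.42.0 on recovered reads were alternatives. Exon lengths and positions came from GENCODE M21 (20115 IDs matched). The steps were tested on simulated data.

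The members, lists and alternatives were chosen with earlier results of these data known. All members were named; values per library were given for called members, the 16 smallest p, and the most abundant ligand and receptor of each family, and of the other lists for called genes or the 2 smallest p. Deviations of same-numbered libraries from their group means correlated at 0.016, 0.15 and -0.063, and those of other pairs at -0.24 to 0.22. With 3 libraries per group these values cannot decide whether the numbers pair the samples.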

Additional observations from a re-analysis of the deposited data

How the results depend on the processing

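19 alternatives were run, one of them with mutant library 3 as the only mutant (the lone sample is then assumed to vary like the controls). Besides the 1 member called lower and 0 higher, DESeq2 called 7 and 4, the replicate block 2 lower, mutant library 3 alone 2 lower, and array weights, no filter and equal totals 1 higher each. With any 1 library left out, 0 to 6 members were called lower and 0 to 2 higher. Of the other pathway genes 1 was called lower and 0 higher; DESeq2 called 8 and 3, the replicate block 2 and 1, and array weights 2 lower, with 0 to 5 and 0 to 1 over the left-out libraries. Over all genes 35 were lower and 149 higher, against 337 and 537 with DESeq2, 58 lower with the replicate block, 79 and 86 from mutant library 3 alone, 80 higher with Col1a1 as covariate, and 0 to 242 and 27 to 358 with 1 library left out. The replicate block took the title number as a pairing, which is not known to hold. With it the limma adjusted p of Draxin was 0.0347 and that of Plxnd1 0.0385.

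The Slit-Robo median ranged from -0.22 to 0.028 with 1 library left out; from mutant library 3 alone the netrin median was -0.0092 and the Eph-ephrin median 0.021. Signs turned in uncalled genes, most of them near 0; Slit3, at -0.50, was not. With any 1 library left out the log2 fold change ranged from -0.90 to 0.29 for Slit3, -0.19 to 0.035 for Robo1, -0.044 to 0.032 for Sema3a, -0.011 to 0.076 for Sema6a, -0.14 to 0.026 for Sema6d, -0.15 to 0.046 for Nrp1, -0.082 to 0.11 for Nrp2, -0.0078 to 0.15 for Efna5, -0.092 to 0.0063 for Epha4 and -0.17 to 0.027 for Epha7. From mutant library 3 alone Sema6a was at -0.036, Plxna2 0.034, Plxnb1 0.014, Nrp1 0.079, Nrp2 0.090, Epha4 0.014 and Epha7 0.023. With Col1a1 as covariate Sema6a was at -0.035, Plxnb1 0.0039 and Nrp1 0.046. Plxnb2 was at 0.013 after quantile normalisation and Nrp2 at 0.0002 at equal totals. The causes were not tested. Reads were few for Ntn1 and Slit3, and a mean of at least 50 left both out.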
